A study of Mus musculus with 9 samples.

Results

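The 40 genes described here act in G2 and mitosis, and they were taken by symbol from a table of raw RNA-seq counts for 48526 genes. All 40 symbols were found in GENCODE M21, and all 40 passed the filter on low counts together with 18858 genes in all, with between 1313 counts (the lowest library of Pttg1) and 92364 counts per gene and library. The libraries came from neural stem cells (NSCs) of the subependymal zone (SEZ), the niche along the lateral ventricle, of adult wild-type mice (C57BL/6 in the labels, C57BL/6J and 2 to 4 months old in the methods of the study). The cells had been expanded as neurospheres, so they were cultured progenitors and not a sorted population from tissue. Undifferentiated cells (0 h) were compared with cells taken 1 h and 6 h after induction of differentiation, that is culture on an adhesive substrate without EGF, with FGF kept in the medium according to the methods. There, cells to be fixed at early times were first seeded in medium with both factors, and whether this also holds for the cells of the RNA libraries is not given in the sources used here. Each time point had 3 replicates, numbered 1 to 3, and no source says whether a number stands for an animal, a pool of animals or a culture, so p-values measure the spread between these samples. Where the replicate number is in the model, p-values measure only the spread left once differences between the numbers are taken out.

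Progression through G2 and mitosis rests on a wave of transcripts that builds up after DNA replication and is lost again when the cell divides. Cyclins A2 and B activate the kinase CDK1, phosphatases of the CDC25 family remove its inhibitory phosphates, and Polo and Aurora kinases act with it on centrosomes, chromosomes and the spindle. The spindle checkpoint then holds the anaphase-promoting complex in check until all kinetochores are attached, after which securin and cyclin B are degraded and the central spindle directs cytokinesis. In the adult SEZ, activated NSCs and the transit-amplifying progenitors they form are the main dividing cells, and many of these genes serve as markers of cycling cells there.

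The 9 markers of NSCs in the list summed to between 6723 and 9614 CPM, that is counts scaled to the size of the library. Most of this sum came from Nes, Vim, Fabp7 and Slc1a3. Other markers of the list were lower, such as Pax6 with 31.3 to 40.6 CPM and Prom1 with 2.78 to 12.8 CPM. Of 6 microglial markers all stayed under 1 CPM in every library, and C1qa was at 0 in all of them. The endothelial gene Cldn5 had no count in 8 of 9 libraries, whereas the summed list of 5 endothelial markers lay between 3.23 and 19.96 CPM. The 6 neuronal markers summed to 34.9 to 77.2 CPM before differentiation, and to 41.4 to 81.0 CPM after 1 h and 66.3 to 133 CPM after 6 h. Among them Syt1 went from 10.5, 24.4 and 33.5 CPM in replicates 1 to 3 at 0 h to 39.8, 57.6 and 114 CPM at 6 h. Rbfox3 and Snap25 were also higher at 6 h in each replicate, at 7.47 CPM or less. Gad1 was lower in replicates 1 and 3. Slc17a7 and Stmn2 stayed under 1 CPM in all libraries, and Stmn2 was lower in each replicate. The 5 markers of mural cells and fibroblasts, mostly Acta2, summed to 52.2 to 96.1 CPM at 0 h. At 6 h their sum was 28.3 to 46.1 CPM, without overlap. The 4 ependymal markers, mostly Foxj1, summed to 46.3 to 87.2 CPM at 0 h and 37.8 to 59.8 CPM at 6 h. The part of these cell types in the results below was not tested. Total counts ranged from 65871454 to 105592597 per library. Between 0.581% and 0.781% of all counts fell on the 40 G2 and mitosis genes, with 0.621% to 0.781% at 0 h, 0.581% to 0.754% at 1 h and 0.585% to 0.769% at 6 h. These ranges overlapped at all time points. In RNA from whole cultures, fewer dividing cells and less RNA per dividing cell cannot be told apart.

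At 0 h the members spanned a wide range of levels per length, given here as CPM per kilobase of summed exon length (mean ± SD, n = 3). That length joins the exons of all annotated transcripts of a gene, for example 1868 bases for Cdc20 and 6493 for Ndc80. The order below depends on it, and the length of the transcripts present in these cells was not measured. Top2a, which encodes the topoisomerase that disentangles sister chromatids, stood at 99.4 ± 11.6. Mki67, the source of the proliferation marker Ki-67, followed with 92.4 ± 8.7, and Cdc20, which activates the anaphase-promoting complex, with 91.6 ± 26.1. These leading genes lay within their spread of each other. The next in order were Ccnb1 with 62.2 ± 12.5, Tpx2, a spindle assembly factor, with 60.2 ± 8.2 and Ccna2 (cyclin A2) with 55.9 ± 7.5, which were again within their spread. At the other end, Cdc25c, a phosphatase that activates CDK1, had 7.1 ± 1.1 and Ndc80, a subunit of the kinetochore complex that binds microtubules, had 9.3 ± 0.8. At 6 h the order at the top was Cdc20 (103 ± 19.96), Top2a (85.3 ± 14.02) and Mki67 (80.4 ± 10.6), with overlapping spreads.

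The promoters of G2 and mitosis genes are known for a cell cycle genes homology region (CHR), an element bound by the MuvB complex, and for upstream CCAAT boxes bound by NF-Y. RefSeq promoter windows (GRCm38.p6) from 250 bases before to 50 bases after the transcription start were searched on both strands for TTTGAA or TTCGAA as the CHR and for CCAAT. Of the 40 members 33 had a window, and those without were Aurkb, Ccna2, Cdc25c, Foxm1, Incenp, Kif20a and Tpx2. The CHR letters were present in 26 of these 33 genes, or in 80.6% of their 36 windows, against 19.2% of all 32851 windows. CCAAT was present in 25 of 33 genes (77.8% of windows, against 37.4% of all), and both together in 72.2% of the windows, against 7.52% of all. In 24 of the 26 genes a CHR match began within 50 bases of the start on either side, as the plot of matches by distance shows. The letters TTTGAA or TTCGAA were not in the windows of Birc5, Ccnb1, Cenpe, Mad2l1, Nuf2, Nusap1 and Pttg1. For comparison, 40 S phase genes had the CHR letters in 21.1% and CCAAT in 65.8% of their windows, and 85 other mitotic genes in 57.9% and 69.7%.

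**Figure D1:**
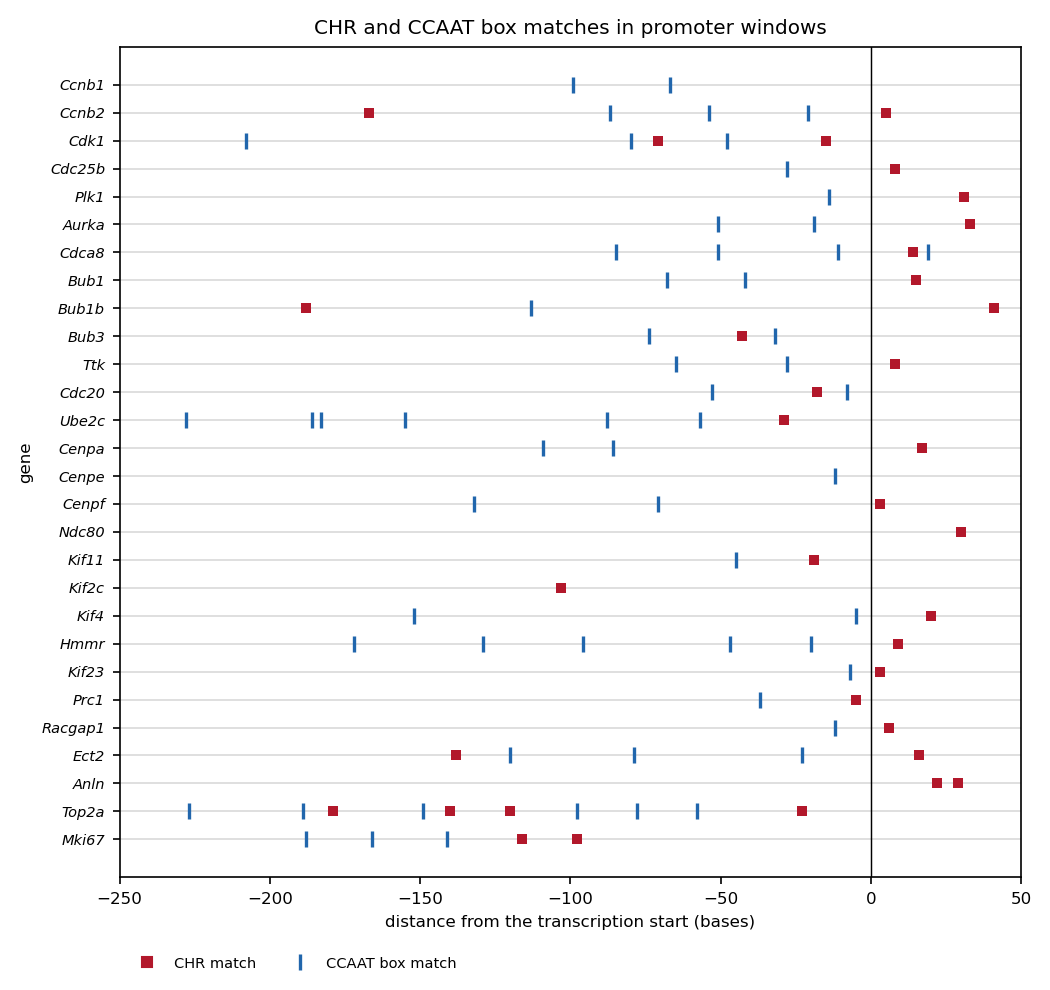
Positions of CHR matches (red squares) and CCAAT matches (blue bars) relative to the transcription start, in bases, for the 28 members with at least 1 match among the 33 with a promoter window. CHR matches cluster around the start, within 50 bases of it in 24 of 26 genes, and CCAAT matches lie mostly upstream.

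Because they show how CHR and CCAAT letters are laid out, 6 promoters of members described in detail below are given from 120 bases before to 50 bases after the start (170 bases, 5′ to 3′ on the strand of the gene), so that the last 50 bases lie in the transcribed first exon. Capitals mark CHR and CCAAT matches, which read TTCAAA and ATTGG where they lie on the other strand. They belong to Cdk1 (chr10:69352863-69353032, minus strand), Plk1 (chr7:122159315-122159484, plus strand), Bub1b (chr2:118598091-118598260, plus strand), Cdc20 (chr4:118437294-118437463, minus strand), Cenpa (chr5:30666766-30666935, plus strand) and Kif11 (chr19:37376262-37376431, plus strand). Cdk1 holds 2 CHR matches and the other promoters 1 in these stretches.
Cdk1: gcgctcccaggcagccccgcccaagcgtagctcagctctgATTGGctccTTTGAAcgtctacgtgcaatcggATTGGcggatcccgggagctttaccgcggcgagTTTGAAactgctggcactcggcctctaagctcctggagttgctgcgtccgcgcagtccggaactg
Plk1: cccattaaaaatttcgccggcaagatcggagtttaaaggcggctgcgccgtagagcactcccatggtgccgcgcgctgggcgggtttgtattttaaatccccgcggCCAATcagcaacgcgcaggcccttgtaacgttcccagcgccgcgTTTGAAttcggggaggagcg
Bub1b: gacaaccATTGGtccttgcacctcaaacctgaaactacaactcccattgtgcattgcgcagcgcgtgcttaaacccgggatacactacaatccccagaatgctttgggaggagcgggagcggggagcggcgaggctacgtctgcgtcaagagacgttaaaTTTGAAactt
Cdc20: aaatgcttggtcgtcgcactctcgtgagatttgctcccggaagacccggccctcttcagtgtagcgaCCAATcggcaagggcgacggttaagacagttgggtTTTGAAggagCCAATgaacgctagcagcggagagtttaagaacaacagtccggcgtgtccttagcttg
Cenpa: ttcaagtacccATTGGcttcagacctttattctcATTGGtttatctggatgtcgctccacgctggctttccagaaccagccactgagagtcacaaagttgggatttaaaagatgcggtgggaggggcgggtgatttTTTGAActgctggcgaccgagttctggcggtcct
Kif11: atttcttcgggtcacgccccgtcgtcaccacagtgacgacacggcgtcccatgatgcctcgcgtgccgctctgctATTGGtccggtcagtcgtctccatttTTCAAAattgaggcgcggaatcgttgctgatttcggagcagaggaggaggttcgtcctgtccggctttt

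In most members, as in most genes, the replicate number took more of the variation than the time point. At 0 h replicate 2 had the lowest level in 38 of the 40 genes, at 1 h in 38 and at 6 h in 37, and in 37 genes it was lowest at all times. The exceptions were Cdc25b, Pttg1 (securin) and Nusap1, a microtubule-bundling protein. Pttg1 was highest in replicate 2 at all times, with 21.6, 27.3 and 18.8 CPM in replicates 1 to 3 at 0 h. Within a time point the highest library of a gene was 1.31 times the lowest at 0 h, 1.32 times at 1 h and 1.31 times at 6 h (medians over the members). The order of the replicates over all genes is not given here, so nothing is read from these counts of members.

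On the log2 CPM scale, the replicate number took a median of 75.3% of a member's variation over the 9 libraries, time point 14.5% and the remainder 9.21%. The same medians over all 18858 genes were 48.9%, 26.9% and 11.3%. The replicate share was above the time share in 38 of 40 members, and the exceptions were Cenpe, a kinetochore motor, and Bub3, a checkpoint protein. It was also above the time share in 11620 of the 18858 genes and in 69 of the 85 other mitotic genes. The 40 S phase genes had medians of 64.4% for the replicate number and 31.3% for time point. Because of this layout each comparison is given without the replicate number in the model and with the number as a block.

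**Figure D2:**
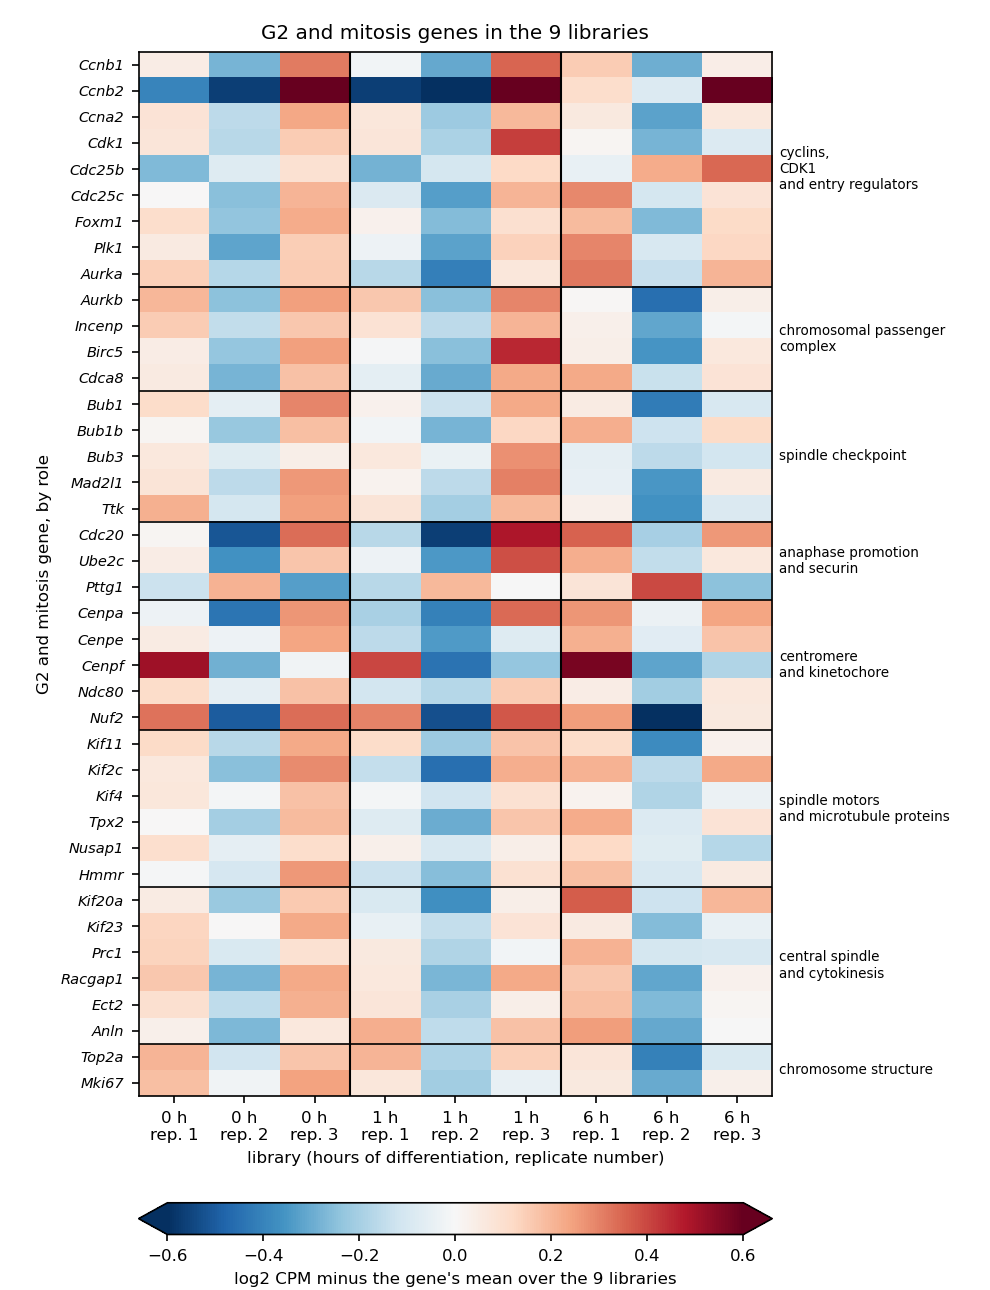
Level of each of the 40 genes (rows, grouped by role) in each of the 9 libraries (columns), as log2 CPM minus the gene's mean over the 9 libraries. The columns of replicate 2 are mostly blue at all times, Pttg1 runs against this and Ccnb2 is highest in replicate 3.

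After 1 h of differentiation the levels of the members were close to those at 0 h. Without the block, 0 of 40 members passed the threshold in edgeR (adjusted p under 0.05, quasi-likelihood test) in either direction, with 0 members higher and 1 lower at an unadjusted p under 0.05, and DESeq2 also called 0. The background was low, with 0.0424% of all genes called higher and 0% called lower. With the block, 1 member, Cenpe, was called lower and the other 39 were not called, against 2.14% of all genes lower and 1.36% higher. That count was 3 without replicate 3 at 1 h, and 0 without replicate 2 or 3 at 0 h or replicate 1 at 1 h. The median log2 fold change of the members with the block was -0.04, beside 0.00 for all genes, and 33 of the 40 values were below 0. In 23 members the level was lower at 1 h in 3 of 3 replicates, and in 1 member, Anln, it was higher in 3 of 3. How many of all genes were below 0, or lower in 3 of 3 replicates, is not given here. Nothing is therefore read from these counts of members. All 40 blocked 95% intervals lay within a log2 fold change of ±0.5. Without the block the intervals were wider, with a median half-width of 0.36 beside 0.12, and reached from -1.06 to 1.05.

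Cenpe (chr3:135212537-135273611) encodes CENP-E, the kinesin that carries chromosomes towards the spindle equator. It had 177, 167 and 202 CPM in replicates 1 to 3 at 0 h, 154, 136 and 163 CPM at 1 h, and 198, 164 and 193 CPM at 6 h. The 1 h libraries were all below the 0 h libraries, and at 6 h replicates 1 and 3 lay in the range of 0 h and replicate 2 below it. At 1 h it changed by -0.28 ± 0.05 (log2 ± SE) with the block, with an adjusted p in edgeR of 0.0104, and -0.28 ± 0.11 without it, with an adjusted p of 1. The blocked call was lost without replicate 2 or 3 at 0 h or replicate 1 at 1 h (adjusted p between 0.0509 and 0.116), and also in a blocked fit corrected in each library for GC content and transcript length (0.0907). With that correction Aurka, the centrosomal Aurora kinase, was called lower instead (adjusted p = 0.020). At 6 h Cenpe was above its 1 h level by 0.30 ± 0.05 with the block (adjusted p = 0.000751) in 3 of 3 replicates, and this call held in each of the 9 fits that left out 1 library. Without the block its adjusted p was 0.208.

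Mki67 (chr7:135689784-135716361) was at 958, 832 and 999 CPM in replicates 1 to 3 at 0 h, at 884, 730 and 819 CPM at 1 h, and at 878, 685 and 862 CPM at 6 h. It was lower at 1 h than at 0 h in every replicate, although the groups overlapped. With the block the log2 fold change at 1 h was -0.20 ± 0.05 and did not pass (adjusted p = 0.0597). At 6 h against 0 h it was -0.21 ± 0.05 and passed with the block (adjusted p = 0.00803), but not without it (-0.20 ± 0.12, adjusted p = 0.467). The blocked call was lost without replicate 2 at 0 h or at 6 h (adjusted p between 0.0635 and 0.0757).

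After 6 h against 0 h, 0 of 40 members passed without the block, and 0 had an unadjusted p under 0.05 in edgeR. DESeq2 without the block called 0 as well, and the smallest adjusted p in edgeR was 0.375. Over all genes 1.46% were called higher and 0.955% lower in that fit. With the block, 2 members were higher (Ccnb2 and Cdc25b) and 10 were lower (Bub1, Ttk, Top2a, Mki67, Aurkb, Kif23, Mad2l1, Incenp, Nuf2 and Kif4), and 28 were not called. The blocked background was 17.4% of all genes higher and 17.5% lower, beside 5% of the members higher and 25% lower. Scaled by library totals, the blocked fit called 4 members higher and 8 lower. The median log2 fold change of the members was -0.05, beside 0.00 for all genes. With the block the estimated effects were small. The values lay between -0.27 for Bub1 and 0.34 for Ccnb2, that is between 0.831-fold and 1.26-fold. Of the blocked intervals 39 of 40 stayed within ±0.5, whereas the unblocked intervals reached from -0.89 to 1.32.

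The blocked counts moved with single libraries. Without replicate 3 at 6 h 11 members were higher and 5 lower, and without replicate 3 at 1 h 7 were higher and 14 lower. Without any 1 of the 0 h libraries, or replicate 1 or 2 at 6 h, 1 was higher. The 10 lower members were 6 without replicate 1 or replicate 3 at 0 h, and 3 without replicate 2 at 0 h or at 6 h. Without replicate 1 at 6 h 12 were lower. The shares of all genes called in these fits are not given here, so nothing is read from how the counts moved. In all 9 fits that left out 1 library, Cdc25b was called higher and Aurkb, Ttk and Top2a were called lower.

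**Figure D3:**
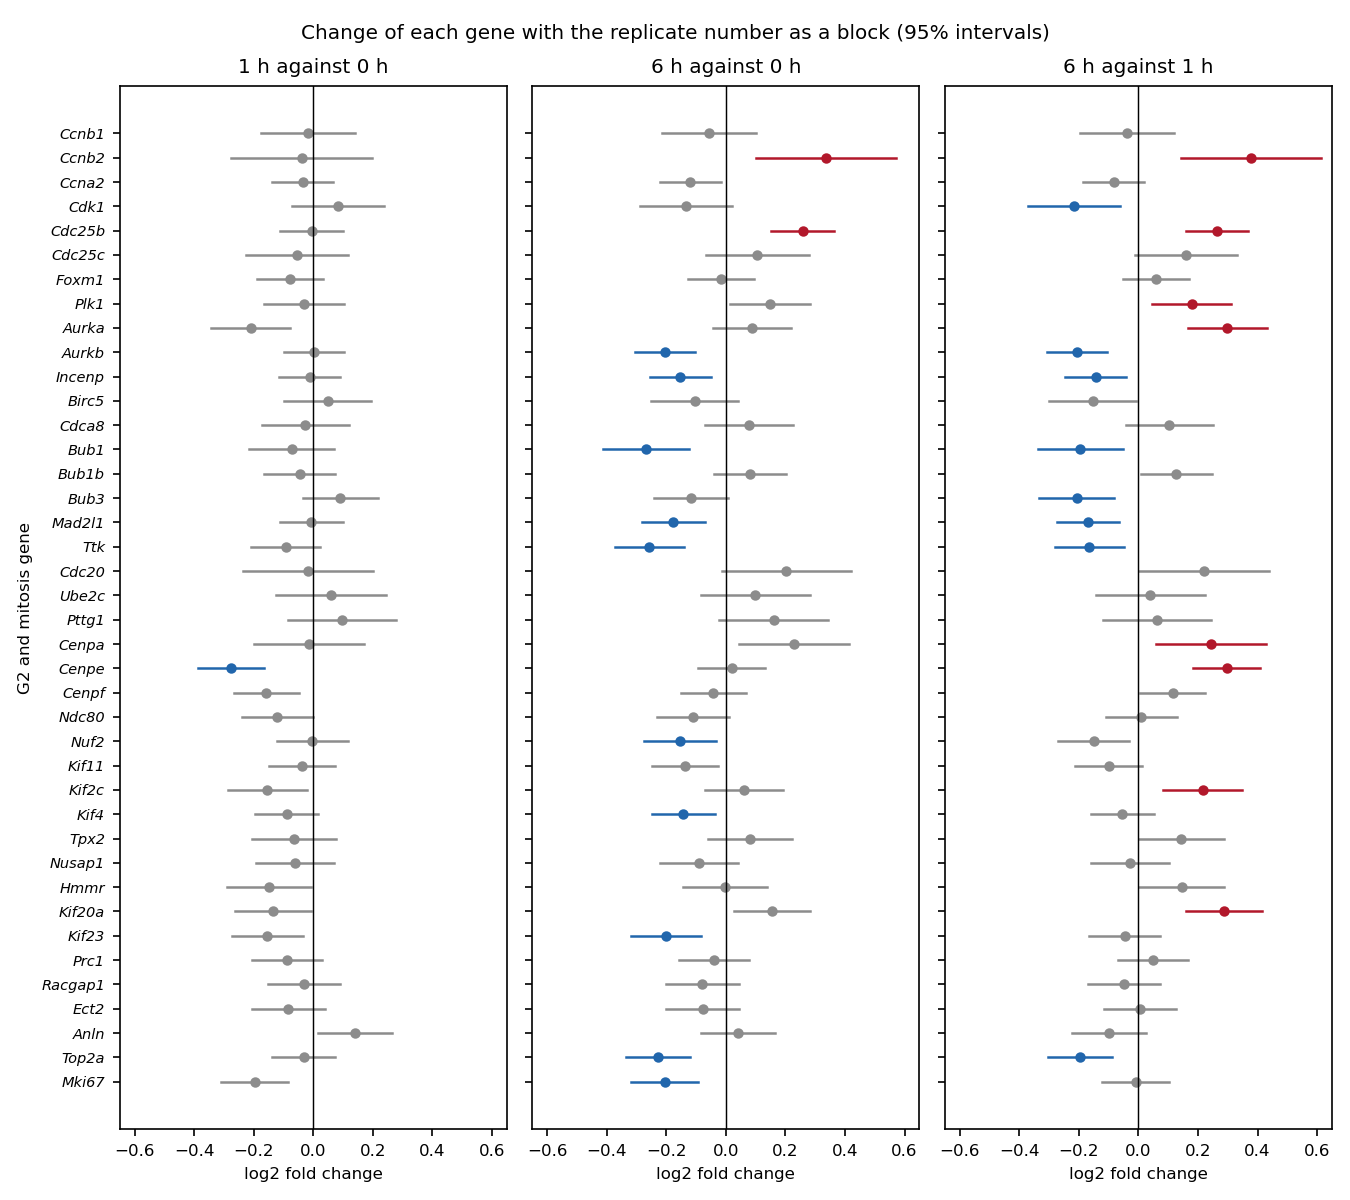
Log2 fold change of each member in the 3 comparisons in the fit with the replicate block, with 95% intervals (lines), where red marks members called higher, blue those called lower and grey those not called. At 6 h against 0 h 2 members are red and 10 blue, and at 6 h against 1 h 8 are red and 8 blue.

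The direction of the differences at 6 h was not the same in the 3 replicates. Compared with 0 h, 23 of 40 members were higher in replicate 1, 15 in replicate 2 and 5 in replicate 3, with medians of the log2 difference of 0.08, -0.03 and -0.17. Compared with 1 h, 30, 20 and 8 members were higher, with medians of 0.15, 0.00 and -0.13. The medians over all tested genes were between -0.01 and 0.01 in each replicate. With 1 library per replicate and time point this difference between replicates could not be tested. At 1 h against 0 h the medians were -0.08, -0.05 and -0.02. At 0 h replicate 3 was the highest library in 35 members and at 1 h in 33, whereas at 6 h replicate 1 was the highest in 31.

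**Figure D4:**
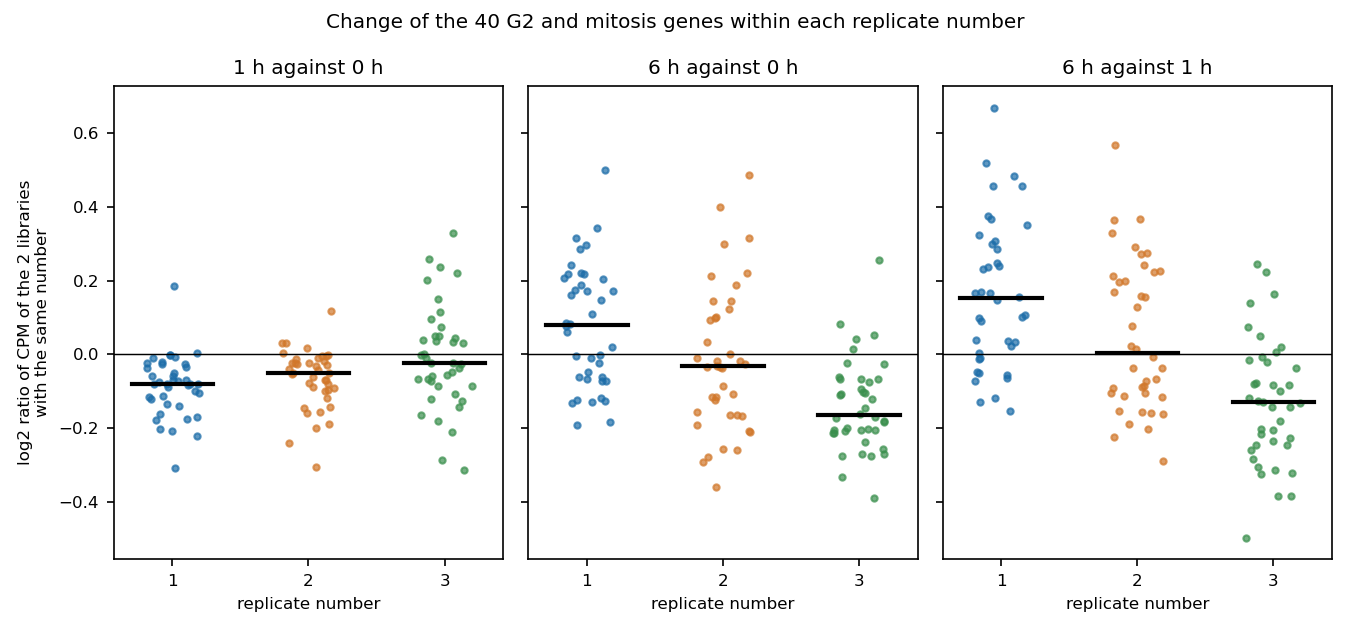
Log2 ratio of CPM between the 2 libraries with the same replicate number, for each of the 40 members (points) and their median (bars). At 6 h the medians against 0 h run from 0.08 in replicate 1 to -0.17 in replicate 3.

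The members are described by role from here on, and the counts of each group stand against the blocked background of 17.4% higher and 17.5% lower at 6 h against 0 h, and 18% and 17.5% against 1 h. The groups hold 2 to 9 genes, and nothing is read from their counts. Among the 9 cyclins, CDK1 and regulators of mitotic entry, 2 were called higher at 6 h against 0 h with the block and the other 7 were not called. Cdc25b (chr2:131186949-131198497), a phosphatase that starts CDK1 activation at the centrosome, had 44.9, 51.1 and 57.3 CPM in replicates 1 to 3 at 0 h, 44.2, 50.1 and 58.5 CPM at 1 h, and 52.1, 62.9 and 68.4 CPM at 6 h. It was higher at 6 h in every replicate while the groups overlapped between replicates. The log2 fold change was 0.26 ± 0.05 with the block (adjusted p = 0.00119) and 0.26 ± 0.14 without (adjusted p = 0.405). Against 1 h it was 0.26 ± 0.05 with the block (adjusted p = 0.00107). An exon of Cdc25b overlaps one of Spef1 on the other strand, and the strand setting of the counting is not given in the sources used here. Such an overlap is annotated for 11 members, among them Plk1, Kif4 and Kif20a, and its part in the counts was not tested.

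Ccnb2, encoding cyclin B2 (chr9:70407692-70421547), had 23.3, 20.7 and 49.0 CPM at 0 h, 20.7, 19.5 and 52.4 CPM at 1 h, and 32.9, 29.0 and 49.6 CPM at 6 h. Replicate 3 stood apart at all times, and at 6 h against 1 h it was the only replicate that was not higher. With the block the log2 fold change was 0.34 ± 0.11 at 6 h against 0 h (adjusted p = 0.0282) and 0.38 ± 0.11 against 1 h (adjusted p = 0.0163), and without the block 0.26 ± 0.46 (adjusted p = 0.856) and 0.27 ± 0.46 (0.847). The call against 0 h was lost without any 1 of the 0 h libraries and without replicate 1 or 2 at 6 h (adjusted p between 0.0605 and 0.194). Against 1 h it was lost without replicate 1 or 2 at either time (adjusted p between 0.0691 and 0.115). Replicate 3, the highest for Ccnb2, was the lowest for the processed copy Ccnb2-ps, with 363, 509 and 205 counts in replicates 1 to 3 at 0 h beside 1683, 1529 and 3423 counts of Ccnb2, and how reads were shared between these copies was not tested.

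Cdk1 (chr10:69335146-69352938), the kinase that drives entry into mitosis, had 243, 206 and 257 CPM at 0 h, 243, 202 and 308 CPM at 1 h, and 233, 191 and 218 CPM at 6 h. The highest value was that of replicate 3 at 1 h, and each replicate was lower at 6 h than at either earlier time. On the log2 scale the change at 6 h was -0.13 ± 0.07 against 0 h (adjusted p = 0.169) and -0.22 ± 0.07 against 1 h (adjusted p = 0.0309) with the block. The latter was not called without the block (-0.23 ± 0.16, adjusted p = 0.513) and was lost without replicate 3 at 1 h, replicate 2 at 6 h or replicate 3 at 6 h (adjusted p between 0.0506 and 0.207).

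Its partner cyclin B1, encoded by Ccnb1 (chr13:100778650-100786570), was at 262, 210 and 315 CPM at 0 h, 251, 205 and 323 CPM at 1 h, and 282, 207 and 261 CPM at 6 h. The groups overlapped throughout, and the blocked log2 fold change at 6 h was -0.06 ± 0.07 against 0 h (95% interval -0.21 to 0.10, adjusted p = 0.597). The Polo-like kinase gene Plk1 (chr7:122159439-122169873) had 98.6, 76.5 and 106 CPM at 0 h, 93.2, 76.2 and 105 CPM at 1 h, and 117, 89.0 and 104 CPM at 6 h. It was higher at 6 h in replicates 1 and 2 and slightly lower in replicate 3. Against 1 h Plk1 passed with the block (0.18 ± 0.06, adjusted p = 0.0385) but not without it (adjusted p = 0.66). Of the 9 fits without 1 library, 2 kept this call, those without replicate 3 at 1 h or at 6 h, and the others had adjusted p between 0.0513 and 0.224. With the GC and length correction the adjusted p was 0.129.

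Foxm1 (chr6:128362967-128376146), a transcription factor of G2 and M phase genes, was not called in any comparison. Its levels were 143, 113 and 155 CPM at 0 h, 135, 111 and 142 CPM at 1 h, and 152, 110.5 and 144 CPM at 6 h. The blocked log2 fold change at 6 h against 0 h was -0.02 ± 0.05 (95% interval -0.13 to 0.09, adjusted p = 0.833), and replicate number took 92.6% of its variation. Some of its exon bases are shared with Tex52 and Gm44596 on the same strand. Aurka (chr2:172356190-172370535) had 76.3, 61.4 and 76.9 CPM at 0 h, 61.6, 52.0 and 72.4 CPM at 1 h, and 86.1, 62.9 and 79.7 CPM at 6 h. The level at 6 h was above that at 1 h in each replicate, with a blocked log2 difference of 0.30 ± 0.06 (adjusted p = 0.00223, 0.388 without). That call held in each of the 9 fits without 1 library.

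**Figure D5:**
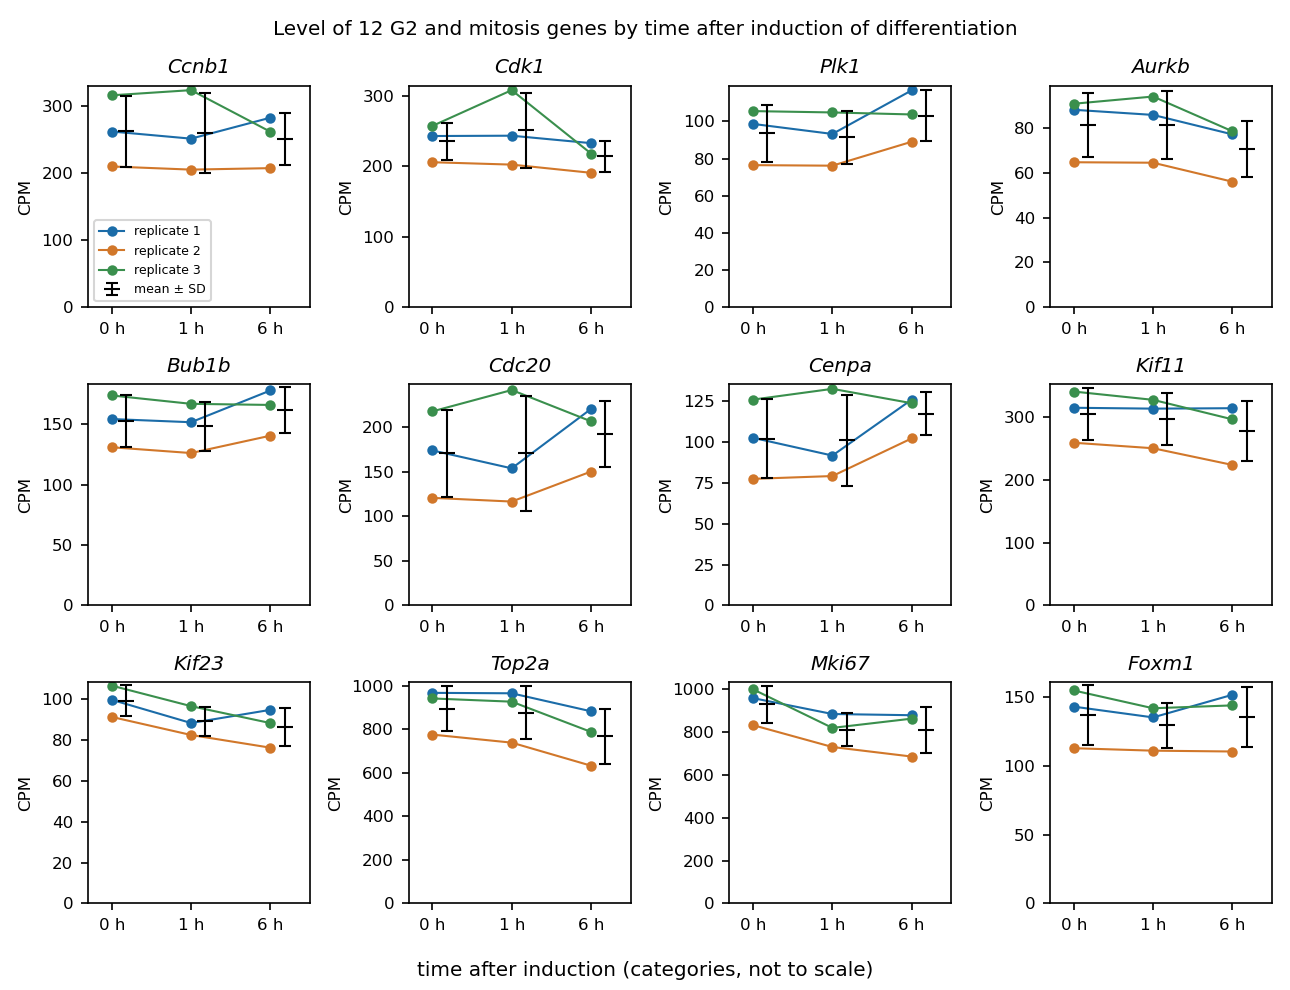
Levels in CPM of the 12 canonical members by time after induction, with 1 line per replicate number and the mean ± SD (n = 3) beside each time point. The lines of the replicates lie apart by more than most of the changes along them, and replicate 2 is the lowest in each panel.

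In the chromosomal passenger complex, which corrects wrong attachments and guides cytokinesis, Aurkb and Incenp were called lower at 6 h against 0 h and against 1 h with the block, while Birc5 (survivin) and Cdca8 (borealin) were not called. Aurkb (chr11:69045647-69051664), the kinase of the complex, had 88.0, 64.6 and 90.7 CPM at 0 h, 85.7, 64.4 and 93.9 CPM at 1 h, and 77.0, 56.0 and 78.4 CPM at 6 h. The fall was of like size in each replicate. Its log2 fold change was -0.20 ± 0.05 against 0 h (adjusted p = 0.0045, 0.674 without the block) and -0.21 ± 0.05 against 1 h (adjusted p = 0.00421, 0.665 without), and both calls held in each fit without 1 library. Incenp, the scaffold, changed by -0.15 ± 0.05 against 0 h (adjusted p = 0.0229) and by -0.14 ± 0.05 against 1 h (adjusted p = 0.0324). These calls were lost without replicate 1 or 2 at 0 h and replicate 2 or 3 at 6 h, that against 0 h also without replicate 3 at 0 h and that against 1 h without replicate 2 at 1 h.

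Of 5 spindle checkpoint genes, 3 were called lower at 6 h against 0 h with the block (Bub1, Ttk and Mad2l1), and against 1 h Bub3 was called lower as well. Bub1 (chr2:127801122-127831865), a kinetochore kinase, had 106, 94.1 and 120 CPM at 0 h, 99.8, 89.6 and 115 CPM at 1 h, and 101, 73.4 and 91.6 CPM at 6 h. It was lower at 6 h than at 0 h in every replicate, most in replicates 2 and 3. The log2 fold change was -0.27 ± 0.07 with the block (adjusted p = 0.0069) and -0.26 ± 0.15 without (adjusted p = 0.407). It was lost without replicate 2 at 0 h or at 6 h (adjusted p between 0.0561 and 0.0632). The call against 1 h (-0.20 ± 0.07, adjusted p = 0.0353) was lost in 5 of the 9 fits, those without replicate 2 at any time or replicate 3 at 1 h or 6 h.

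Ttk (chr9:83834689-83872389), which encodes the checkpoint kinase MPS1, was at 64.8, 51.9 and 66.2 CPM at 0 h, 59.1, 48.5 and 64.0 CPM at 1 h, and 57.0, 43.5 and 52.6 CPM at 6 h. Each replicate was lower at 6 h than at 0 h, with a change of -0.26 ± 0.05 on the log2 scale (adjusted p = 0.00233 with the block, 0.425 without) that was called in each fit without 1 library. Against 1 h it was -0.17 ± 0.05 (adjusted p = 0.0286) and was lost without replicate 2 or 3 at 1 h or at 6 h.

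Bub3 (chr7:131560222-131571895), an adaptor of the checkpoint, had 179, 163 and 175 CPM at 0 h, 179, 166 and 207 CPM at 1 h, and 164, 153 and 158 CPM at 6 h. All 6 h values lay below all 1 h values, and the 6 h and 0 h values overlapped slightly. Against 1 h the change was -0.21 ± 0.06 (adjusted p = 0.0135 with the block, 0.269 without), and it was lost without replicate 3 at 6 h (adjusted p = 0.0843). Mad2l1, whose protein binds and blocks CDC20, changed by -0.18 ± 0.05 against 0 h (adjusted p = 0.0132) and by -0.17 ± 0.05 against 1 h (adjusted p = 0.0158). The call against 0 h was lost without replicate 1 or 2 at 0 h or replicate 2 or 3 at 6 h, and with the GC and length correction (adjusted p = 0.285), and that against 1 h without replicate 2 at 1 h or replicate 2 or 3 at 6 h.

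Bub1b (chr2:118598211-118641591), encoding the checkpoint protein BUBR1, was not called in any comparison. It had 154, 131 and 174 CPM at 0 h, 152, 126 and 167 CPM at 1 h, and 178, 141 and 166 CPM at 6 h. Replicates 1 and 2 were higher at 6 h and replicate 3 was lower, with a blocked log2 fold change against 0 h of 0.08 ± 0.06 (95% interval -0.04 to 0.20, adjusted p = 0.286).

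The 3 genes of anaphase promotion and securin, Cdc20, Ube2c and Pttg1, were not called in any comparison. Cdc20 (chr4:118432901-118437352) had 174, 121 and 218 CPM at 0 h, 154, 117 and 242 CPM at 1 h, and 221, 150.5 and 207 CPM at 6 h. Replicates 1 and 2 were higher at 6 h than before and replicate 3 was lower, and the log2 fold change with the block was 0.20 ± 0.10 against 0 h (95% interval -0.01 to 0.42, adjusted p = 0.138) and 0.22 ± 0.10 against 1 h (adjusted p = 0.108). Ube2c encodes the ubiquitin-conjugating enzyme of the anaphase-promoting complex, and its log2 fold change against 0 h was 0.10 ± 0.08 (adjusted p = 0.402).

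Among 5 centromere and kinetochore genes, Nuf2 was called lower at 6 h against 0 h and Cenpa and Cenpe higher at 6 h against 1 h, all with the block. Cenpa (chr5:30666777-30674830) encodes the histone H3 variant that marks the centromere. It had 102, 77.4 and 126 CPM at 0 h, 91.6, 79.1 and 132 CPM at 1 h, and 126, 102 and 124 CPM at 6 h. Replicates 1 and 2 were higher at 6 h and replicate 3 was lower. The blocked log2 fold change was 0.24 ± 0.09 against 1 h (adjusted p = 0.0406) and 0.23 ± 0.09 against 0 h (adjusted p = 0.054), and without the block adjusted p was 0.705 and 0.733. The call against 1 h was lost in 5 of 9 fits, those without replicate 3 at 0 h or replicate 1 or 2 at 1 h or 6 h (adjusted p between 0.0596 and 0.217), and with the GC and length correction (0.063).

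Nuf2, the partner of Ndc80, had 172, 97.0 and 173 CPM at 0 h and 163, 89.6 and 143 CPM at 6 h, so that replicate 2 stood far below the others. Its log2 fold change against 0 h was -0.15 ± 0.06 (adjusted p = 0.0462), and 2 of 9 fits without 1 library kept the call, those without replicate 3 at 1 h or replicate 1 at 6 h. The GC and length correction also ended it (adjusted p = 0.168). Cenpf, which binds kinetochores late in G2, was highest in replicate 1 at all times (450, 260 and 313 CPM at 0 h) and was not called.

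Of 6 spindle motors and microtubule proteins, Kif4 was called lower at 6 h against 0 h and Kif2c higher at 6 h against 1 h with the block. Kif11 (chr19:37376403-37421859), the motor that separates spindle poles, had 314, 259 and 340 CPM at 0 h, 313, 250 and 327 CPM at 1 h, and 314, 223 and 296 CPM at 6 h. It was lower at 6 h in each replicate, by very little in replicate 1, and the blocked log2 fold change of -0.14 ± 0.05 did not pass (adjusted p = 0.054). Kif4, a chromosome-bound motor, changed by -0.14 ± 0.05 against 0 h (adjusted p = 0.0384), a call that 2 of 9 fits without 1 library kept, those without replicate 3 at 1 h or replicate 1 at 6 h. Exons of Kif4 overlap those of Pdzd11 on the other strand over 832 bases. Kif2c, a microtubule depolymerase, changed by 0.22 ± 0.06 against 1 h (adjusted p = 0.0148) and was lost without replicate 1 or 2 at 1 h or at 6 h.

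In the central spindle and cytokinesis group of 6 genes, Kif23 was called lower at 6 h against 0 h and Kif20a higher at 6 h against 1 h. Kif23 (chr9:61915905-61946774), the motor of the centralspindlin complex, had 99.7, 91.3 and 107 CPM at 0 h, 88.3, 82.4 and 96.6 CPM at 1 h, and 94.8, 76.2 and 88.3 CPM at 6 h. It was below its 0 h value in each replicate at both later times. On the log2 scale the change at 6 h against 0 h was -0.20 ± 0.05 with the block (adjusted p = 0.012) and -0.20 ± 0.10 without (adjusted p = 0.375), and it was lost without replicate 2 or 3 at 0 h or at 6 h (adjusted p between 0.062 and 0.0865). At 1 h it was -0.15 ± 0.05 (adjusted p = 0.155).

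Kif20a, a motor that brings Aurora B to the central spindle, had 115, 95.1 and 124 CPM at 0 h, 104, 86.1 and 114 CPM at 1 h, and 143, 102 and 127 CPM at 6 h. All replicates were lower at 1 h and higher at 6 h than at 0 h. The log2 fold change at 6 h against 1 h was 0.29 ± 0.06 (adjusted p = 0.00218 with the block, 0.391 without) and was called in each fit without 1 library, while against 0 h it was 0.15 ± 0.06 (adjusted p = 0.0595). Its exons overlap those of Cdc23 on the other strand over 1271 bases. Cdc23 was also called higher at 6 h against 1 h with the block. The part of this overlap in the counts of Kif20a was not tested. Prc1, Racgap1, Ect2 and Anln, which build the midzone and the contractile ring, were not called in any comparison, with blocked log2 fold changes between -0.10 and 0.14.

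Top2a (chr11:98992943-99024189), with Mki67 in the group of chromosome structure, was called lower at 6 h against both earlier times with the block. The libraries had 968, 776 and 943 CPM at 0 h, 966, 739 and 928 CPM at 1 h, and 884, 633 and 789 CPM at 6 h. Every replicate fell at 6 h while the groups overlapped. The log2 fold change was -0.23 ± 0.05 against 0 h (adjusted p = 0.00312, 0.533 without the block) and -0.20 ± 0.05 against 1 h (adjusted p = 0.00795, 0.595 without), and both calls held in each fit without 1 library.

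When 6 h was compared with 1 h as a whole, 0 of 40 members passed in edgeR without the block, with 1 higher and 1 lower at an unadjusted p under 0.05, and DESeq2 without the block called 0. In that fit 1.48% of all genes were called higher and 0.663% lower. With the block 8 members were higher (Ccnb2, Aurka, Cenpe, Kif20a, Cdc25b, Cenpa, Kif2c and Plk1) and 8 lower (Cdk1, Bub3, Aurkb, Top2a, Bub1, Mad2l1, Ttk and Incenp), or 20% in each direction, against 18% and 17.5% of all genes. With library totals as the scaling these were 12 higher and 3 lower. The median was 0.01, beside 0.00 for all genes. Single libraries moved these counts too, and the shares of all genes in those fits are likewise not given here. The 8 higher members were 16 without replicate 3 at 1 h, 15 without replicate 3 at 6 h, and 4 without replicate 1 or 2 at either time. The 8 lower members were 5 without replicate 3 at 1 h, 4 without replicate 2 at 1 h, 3 without replicate 2 at 6 h and 2 without replicate 3 at 6 h. Without replicate 1 at 6 h 12 were lower. Of the 16 calls, 6 held in each of the 9 fits (Cdc25b, Aurka, Cenpe and Kif20a higher, Aurkb and Top2a lower).

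Genes that work around these members were counted in the same fits. Of 40 S phase genes, 38 were lower at 6 h against 0 h with the block (95%, against 17.5% of all genes) and the other 2 were not called, with a median log2 fold change of -0.38, where the G2 and mitosis genes had 2 higher and 10 lower with a median of -0.05. In edgeR without the block 0 S phase genes were called, 10 had an unadjusted p under 0.05, and DESeq2 called 5. The 2 with the largest fall were Ccne2 (cyclin E2; 42.5 ± 6.57 CPM before and 26.5 ± 7.41 CPM after 6 h, -0.71 ± 0.09, adjusted p = 4.32e-05 with the block) and Chaf1b, a subunit of a histone chaperone (53.3 ± 12.1 CPM before and 33.7 ± 10.9 CPM after, -0.69 ± 0.07, adjusted p = 8.17e-06). The difference between the S phase genes and the G2 and mitosis genes was not tested as such. In each replicate alone the median of the S phase genes was below 0, at -0.35, -0.52 and -0.30, while that of the members differed in sign.

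Of 85 other mitotic genes 8 were higher and 31 lower at 6 h against 0 h with the block (9.41% and 36.5%, against 17.4% and 17.5% of all genes; median -0.10), and 12 were lower at 1 h (14.1%, against 2.14%). Without the block edgeR called 1 at 6 h, Cenpt (higher, adjusted p = 0.045), and 0 at 1 h, where 1 had an unadjusted p under 0.05, and DESeq2 called 4 and 0. The largest falls at 6 h were those of Wee1, a kinase that inhibits CDK1 (-0.46 ± 0.06, adjusted p = 4.67e-05), and Mastl, the Greatwall kinase (-0.43 ± 0.06, adjusted p = 0.000136). Pimreg (0.47 ± 0.08, adjusted p = 0.000785) and Troap (0.42 ± 0.07, adjusted p = 0.000835) had the largest rises. Without the block the adjusted p of these genes was 0.363, 0.184, 0.228 and 0.42. In the comparison of 6 h with 1 h 19 were higher and 20 lower.

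Of 16 genes of the anaphase-promoting complex and its regulators 2 were higher and 2 lower at 6 h against 0 h with the block, or 12.5% in each direction, against 17.4% and 17.5% of all genes. Anapc2, a subunit of the catalytic core, rose from 122 ± 6.47 to 156 ± 3.88 CPM, by 0.35 ± 0.05 (adjusted p = 0.000132), and also passed without the block (adjusted p = 0.0446). Anapc4 was higher by 0.14 ± 0.04 (adjusted p = 0.0248). Fbxo5, which encodes the inhibitor EMI1, was lower by a log2 fold change of -0.48 ± 0.06 (adjusted p = 9.86e-05), and Cdc27 by -0.16 ± 0.05 (adjusted p = 0.0328).

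Among 16 factors of the MuvB, DREAM and NF-Y complexes, which bind CHR and CCAAT elements, 2 were higher and 6 lower at 6 h against 0 h with the block (12.5% and 37.5%, against 17.4% and 17.5%). Rbl1 (p107) changed by -0.59 ± 0.06 (adjusted p = 1.28e-05) and Rbl2 (p130) by 0.28 ± 0.06 (adjusted p = 0.00316). Mybl1 was lower (-0.48 ± 0.07, adjusted p = 0.000161) and Nfya, the DNA-binding subunit of NF-Y, was higher (0.17 ± 0.05, adjusted p = 0.0167). None of these 4 passed without the block. CHR letters were in the promoter windows of 2 of 2 members called higher at 6 h against 0 h, 6 of 8 called lower and 18 of 23 not called, among those with a window.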

How the data were processed

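RNA-seq libraries of NSCs before (0 h) and 1 h and 6 h after induction of differentiation (3 replicates each) were analysed. The authors checked reads with FastQC, aligned and counted them with STAR 2.5.3a on mm10 (GRCm38), and deposited raw counts per Ensembl gene, without normalisation. Their own tests used DESeq2 1.22.1. The counts were tested here with the quasi-likelihood test of edgeR 4.0.16 (R 4.3.3), with TMM scaling, filterByExpr (minimum count 10, total 15), all 9 libraries and time point as the factor. P-values were adjusted over 18858 genes by the Benjamini-Hochberg method, with a threshold of 0.05. CPM use TMM-scaled totals, and log2 CPM a prior count of 2. Standard errors come from the F statistic. Intervals are 95% and, like p-values, cover the spread between libraries only. With the replicate number as a block, they cover the part of it left once differences between the numbers are taken out.

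The alternative with the replicate number as a block applies because the numbers pair the libraries. Numbers 1 to 3 stand for the letters B, C and D in the sample titles. After subtraction of time point means, libraries with the same number correlated at 0.733 to 0.800 in 9 pairs and others at -0.462 to -0.314 in 18. The negative values follow from the subtraction, after which the 3 libraries of a time point sum to 0 for each gene. They are no separate evidence of pairing. No source states what libraries with the same number share. Further alternatives were DESeq2 1.42.0, RLE scaling, library totals, other filters, 6-library fits, an adjusted p under 0.01, leaving out each library, and a correction of each library for GC content and transcript length (splines, 4 degrees of freedom). Variants of the blocked fit were chosen after seeing the data. The scripts were tested on simulated data. The members, lists and rules were chosen with earlier results of these data known. Full values are given for 12 canonical members, for any called without the block, and for the 3 largest rises and falls per comparison among those called with the block and moving alike in 3 of 3 replicates, and for up to 2 rises and 2 falls per list of other genes. Incenp, Mad2l1, Nuf2, Kif4, Kif2c, Cenpf, Ube2c and Pttg1 were described after their values had been seen. Splicing was not analysed here.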

Additional observations from a re-analysis of the deposited data

How the results depend on the processing

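Without the replicate block, 0 of the 40 members were called in either direction and in each comparison under DESeq2, RLE scaling, library totals, both other filters, fits of the 6 libraries compared, the GC and length correction, an adjusted p under 0.01 and each fit without 1 library. The replicate block changed this: it called 1 lower at 1 h against 0 h, 2 higher and 10 lower at 6 h against 0 h, and 8 higher and 8 lower at 6 h against 1 h. DESeq2 with the block called 3 lower at 1 h, then 3 higher and 10 lower, and 8 higher and 9 lower. The block with the GC and length correction called 1 lower at 1 h, 2 higher and 9 lower, and 6 higher and 8 lower. The blocked fit with library totals called 2 lower at 1 h, 4 higher and 8 lower at 6 h against 0 h, and 12 higher and 3 lower at 6 h against 1 h. At an adjusted p under 0.01 it called 0 lower at 1 h, 1 higher and 5 lower at 6 h against 0 h, and 4 higher and 2 lower against 1 h. The shares of all genes called under the alternatives to these fits are not given here. The causes of these differences between settings were not tested.

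With 1 library, or the 3 libraries of a replicate number, left out of the blocked fit, the counts ranged from 0 to 3 lower at 1 h, from 1 to 13 higher and from 1 to 14 lower at 6 h against 0 h, and from 2 to 17 higher and from 0 to 12 lower against 1 h. Without number 3 there were 13 and 17 higher at 6 h, and without number 2 there were 1 and 0 lower. These fits have fewer samples, and the shares of all genes called in them are not given here. The median log2 fold change of the members without the block ranged from -0.15 to 0.061 at 1 h when 1 library was left out, from -0.15 to 0.05 at 6 h against 0 h, and from -0.08 to 0.10 against 1 h. Stability was counted for single members chosen by the rules above, that is canonical members and the largest rises and falls per comparison. Among these, 53 of the unblocked values gained a call under an alternative and 802 kept their side of the threshold. The alternatives to the blocked fit gave the same side of the threshold in 638 of the blocked values. In 56 a call was lost and in 26 gained, and no called value changed sign. Left out of these counts were the members described after their values had been seen. Ccnb2, Cdc25b, Bub1 and Ttk at 6 h against 1 h were left out too. Among the calls left out, those of Nuf2, Kif4, Incenp and Bub1 were lost in most fits without 1 library.

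Every member had at least 1313 counts in each library, so the spread between libraries limits these comparisons: the median standard error was 0.16 without the block and 0.06 with it.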

Other observations

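Replicate 3 had the highest count of Ccnb2 and the lowest of its processed copy Ccnb2-ps at each time. Ccnb2-ps had 352, 564 and 198 counts in replicates 1 to 3 at 1 h and 365, 576 and 286 at 6 h, where Ccnb2 had 1324, 1784 and 3771 and then 2426, 2633 and 5309 counts. Another such copy, Ccnb1-ps, had between 82 and 206 counts per library, and Kif4-ps had 0 counts in all 9 libraries.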
